A study of Mus musculus with 8 samples.

Results

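CD24Neg cells were sorted from mouse small intestinal epithelium as the fraction without CD24, a surface glycoprotein carried by many crypt cells. Cells with CD45, the common antigen of white blood cells, had been depleted, and so had cells that bind Ulex europaeus agglutinin I, a lectin that recognises fucose and labels secretory cells. Of the 8 libraries in the series, the 4 whose labels name the CD24Neg sort were described here by absolute level, and the 4 CD24Mid libraries entered no comparison. The study concerned hydroxymethylcytosine during intestinal differentiation, and its design text calls the libraries of a sort biological replicates. They carry the numbers 2, 4, 6 and 8, and values over the libraries are given in that order throughout. Strain, genotype, sex, age and region of the small intestine are not given in the labels used here, nor which animals each library came from. The spread between libraries is therefore that between these samples, and its source was not tested.

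Most of the surface of an intestinal villus is made of enterocytes, absorptive cells that leave the crypts, stop dividing and travel to the villus tip, where they are shed. Their brush border carries enzymes that finish the digestion of sugars and peptides, and they rebuild dietary fat and export it on apolipoproteins as chylomicrons. Goblet cells, which release mucus, and T cells that live inside the epithelium sit between them.

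The level of a gene is given in one of a pair of units. CPM is the number of reads unique to the gene per 1000000 gene-unique reads outside the mitochondrially encoded genes, whose symbols start with mt-, and compares libraries. TPM is the deposited estimate per length, scaled to a sum of 1000000 over the same genes, and compares genes with each other. Means are followed by the standard deviation (SD) over the 4 libraries. No order of levels could reach a p of 0.05 within 4 libraries, since the smallest p of a two-sided exact sign-flip test is 0.125, and orders are therefore described by whether the ranges of the libraries overlap.

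The population carried the 5 enterocyte markers at high levels in all 4 libraries. Apoa1, an apolipoprotein of chylomicrons and high-density lipoprotein, had 8750, 12376, 14568 and 9346 CPM. Apoa4, a chylomicron apolipoprotein, had 4036, 8793, 7569.9 and 4314 CPM. Sis, the sucrase-isomaltase of the brush border, had 2939.7, 4109, 5963 and 3702 CPM. Replicates 4 and 6 were above replicates 2 and 8 for all 3 of these genes. Lct, the lactase, followed the same order of libraries with 1866, 3309, 3911 and 2168 CPM, and Alpi, the intestinal alkaline phosphatase, differed from it with 1915, 2198, 1839.7 and 1475 CPM. Summed over the 5 markers, the level was 26287 ± 7102 CPM (SD, n = 4), and the median of the 5 was 1739 TPM, against 4.18 TPM over the 18856 genes with a read.

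The genes behind the sort were then read in each library. Epcam, the adhesion molecule of epithelial cells, had 1435, 1428, 1489.6 and 1499 CPM and was among the steadier genes. Cd24a, the target of the CD24 antibody, had 26.7, 40.3, 19.5 and 35.4 CPM, and so was present at a low level in every library. Ptprc, the gene of CD45, had 24.1, 2.91, 8.69 and 42.7 CPM, with replicates 2 and 8 above replicates 4 and 6. Fut1 and Fut2, the fucosyltransferases that make the H antigen read by the lectin, were at 0.0985 and 0.303 CPM on the mean. A level of 3 reads, used here as the floor, is worth 0.408, 0.364, 0.221 and 0.370 CPM in these libraries, so both lay near or under it.

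Goblet cell genes were also among the most expressed, although lectin-binding cells had been depleted. Their 6 markers summed to 19904 ± 8445 TPM, beside 28756 ± 8772 TPM for the 5 enterocyte markers (SD, n = 4). By library the goblet markers summed to 22899.5, 27836, 9621 and 12843 CPM. Fcgbp, the mucus protein that binds the Fc part of immunoglobulin G, was the third-ranked gene outside the mt- genes, with 13503, 16586, 5430.5 and 7199.5 CPM. Muc2, the gel-forming mucin of the intestine, had 3399, 4315, 1312 and 1851 CPM, and Tff3, a trefoil peptide secreted with it, had 3379.7, 3475, 1247 and 1959 CPM. All 6 markers were lowest in replicate 6, and 5 of the 6 were highest in replicate 4. Among all genes with at least 50 CPM, replicate 6 was lowest for 31.1% and replicate 4 highest for 11.5%. In bulk RNA, fewer cells of a type and less RNA per cell cannot be told apart, here or in the other marker lists.

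T cell genes were uneven between the libraries. The 7 markers summed to 588, 34.2, 91.2 and 471 CPM. Gzma, granzyme A of cytotoxic lymphocytes, had 297, 15.3, 37.6 and 214 CPM, the largest coefficient of variation (CV, the SD as a percentage of the mean) of the genes compared for spread, at 97.1%. Cd8a, the co-receptor of cytotoxic T cells, had 59.6, 4.60, 11.3 and 45.8 CPM. Replicates 2 and 8 lay above replicates 4 and 6 for every one of the 7 genes, and all 7 were lowest in replicate 4. Replicate 4 was lowest for 21.2% of all genes with at least 50 CPM.

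Crypt genes were present at lower levels. The 5 markers of dividing cells summed to 68.4, 172, 125 and 267 CPM and those of crypt base stem cells to 96.4, 334, 105 and 307 CPM. Mki67, a protein of cycling nuclei, had 34.0, 77.9, 68.1 and 144 CPM, and Top2a, the topoisomerase of replicating chromosomes, had 16.5, 54.8, 35.1 and 76.0 CPM. Lgr5, the receptor that marks crypt base stem cells, had 2.31, 5.69, 2.06 and 3.33 CPM, and Olfm4, which these cells secrete, had 81.0, 308, 92.5 and 282 CPM. Dividing cell genes were thus highest in replicate 8 by their sum, and Olfm4 was high in replicates 4 and 8. The 6 Paneth markers summed to 104, 288, 79.2 and 131 CPM, led by Defa24, a defensin, and the 7 enteroendocrine markers to 88.7, 123, 75.9 and 112 CPM.

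The remaining lists were low. The 5 tuft markers summed to 3.13, 7.63, 6.63 and 11.5 CPM, with Gfi1b at 0 in every library, and the 4 markers of B or plasma cells to 40.7, 55.9, 22.1 and 52.1 CPM, nearly all of it from Igkc and Jchain. The 5 myeloid markers summed to 22.0, 13.4, 12.3 and 28.2 CPM, of which Itgam, an integrin that lymphocytes can share, was the main part. Summed means were 2.01 CPM for endothelial cells, 0.632 CPM for fibroblasts, 0.172 CPM for smooth muscle, 1.56 CPM for hepatocytes, 0.0957 CPM for pancreatic acinar cells and 0.0492 CPM for red blood cells. The 4 globin genes of the last list had no read.

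**Figure D1:**
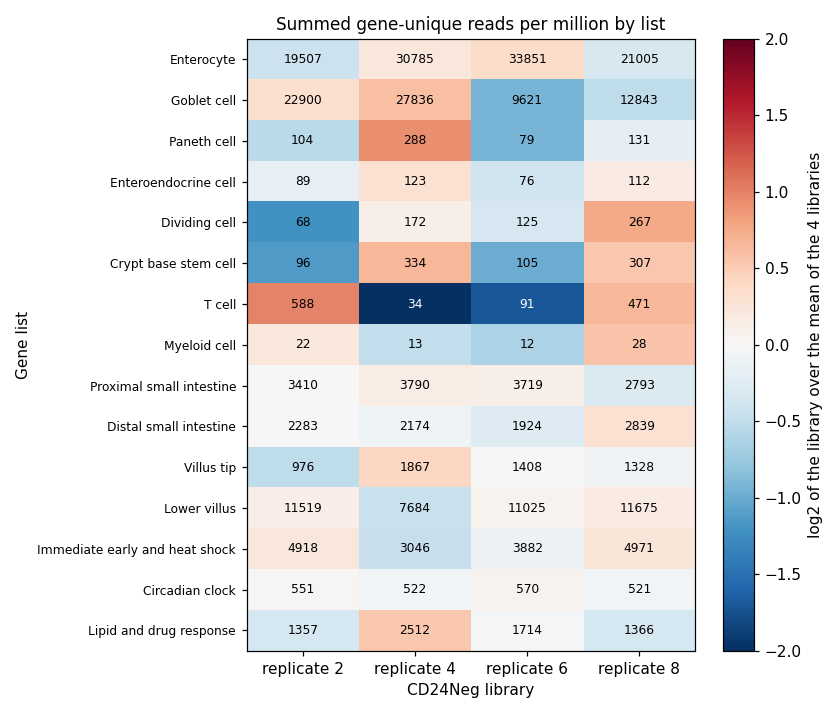
Summed CPM of 15 gene lists (rows) in the 4 CD24Neg libraries (columns), with the sum printed in each cell and the colour giving its log2 ratio to the mean of the 4 libraries. Goblet genes are low in replicates 6 and 8, T cell genes are high in replicates 2 and 8, and the circadian clock list is nearly flat.

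Promoters of 4 villus genes are shown with a search for sites of known regulators. Cdx, Gata, Hnf1 and Hnf4 factors are known activators of enterocyte genes. The windows were searched on both strands for their letters, which for Cdx were TTTATNG. For Gata the letters searched were AGATAA. A short form of the Hnf1 site was searched as GTTAAT. The site of Hnf4 was searched as CAAAGTCCA. Each window holds the 250 bases before the start of the gene in RefSeq on build GRCm38.p6, read 5′ to 3′ on the strand of the gene, with matches in capitals. Sis, the leading disaccharidase, lies on the minus strand at chr3:72967864-72968113 and holds 1 Cdx match, 52 bases before the start, and 1 short Hnf1 match, 165 bases before it. Lct lies on the minus strand at chr1:128328319-128328568 and holds 2 Gata matches, 101 and 90 bases before the start. Fabp1, the leading fatty acid binding protein, lies on the plus strand at chr6:71199629-71199878 and holds 3 Cdx matches, 227, 133 and 89 bases before the start, and 1 short Hnf1 match at 107 bases. Fabp6, the ileal bile acid binding protein, lies on the minus strand at chr11:43601563-43601812 and is shown as the member of that family whose window held none of the 4 motifs.
Sis: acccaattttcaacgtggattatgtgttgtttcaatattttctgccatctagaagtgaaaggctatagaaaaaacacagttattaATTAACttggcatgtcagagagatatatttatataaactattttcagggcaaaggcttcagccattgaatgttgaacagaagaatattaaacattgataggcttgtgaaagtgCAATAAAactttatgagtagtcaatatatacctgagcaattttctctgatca
Lct: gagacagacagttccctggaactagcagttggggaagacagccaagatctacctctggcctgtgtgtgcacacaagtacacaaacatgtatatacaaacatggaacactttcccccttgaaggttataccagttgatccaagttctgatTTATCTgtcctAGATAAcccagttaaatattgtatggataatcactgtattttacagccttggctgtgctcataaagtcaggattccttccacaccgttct
Fabp1: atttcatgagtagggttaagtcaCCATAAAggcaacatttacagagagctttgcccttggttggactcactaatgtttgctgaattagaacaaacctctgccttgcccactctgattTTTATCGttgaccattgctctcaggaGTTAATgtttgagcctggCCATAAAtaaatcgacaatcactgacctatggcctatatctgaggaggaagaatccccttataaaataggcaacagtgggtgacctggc
Fabp6: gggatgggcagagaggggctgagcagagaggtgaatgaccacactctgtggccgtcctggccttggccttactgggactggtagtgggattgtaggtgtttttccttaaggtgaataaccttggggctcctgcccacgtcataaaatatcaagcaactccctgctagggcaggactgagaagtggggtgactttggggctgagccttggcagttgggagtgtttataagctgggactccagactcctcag
The same motifs were counted in the 15572 protein-coding promoters that could be matched by symbol. They were also counted in the 100 of these promoters whose genes had the highest mean CPM. The Cdx letters were in 8.64% of all promoters and in 18 of the 100, those of Gata in 8.43% and 14, those of Hnf1 in 5.60% and 7, and those of Hnf4 in 0.405% and 1. The Cdx letters can overlap a TATA box, and a match describes letters in the window and not a bound site. Of these factors, only Hnf4a and Hnf4g have levels given here, and none of the windows shown holds an Hnf4 match.

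Between 12401668 and 20445879 fragments were mapped per library, and 11340782 to 18928233 of them were unique to 1 gene. The 4 CD24Mid libraries held 15473071 to 17537818 gene-unique reads. Pairs of CD24Neg libraries had Pearson correlations of 0.938 to 0.973 on log2 CPM across 4027 genes, which are not independent replicates. Counts differed beyond sampling noise in each pair, and all 4 libraries were kept as separate samples. In all 4 libraries 11088 genes reached 1 CPM, 7842 reached 10 CPM, 1787 reached 100 CPM and 81 reached 1000 CPM.

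Mitochondrially encoded transcripts took 35.1, 27.7, 28.3 and 37.0% of the gene-unique reads, a mean of 32.0 ± 4.71% (SD, n = 4). The share was higher in replicates 2 and 8 than in replicates 4 and 6. The gene mt-Co1, for the core subunit of cytochrome oxidase, alone held 12.3, 10.2, 10.4 and 13.6% of all gene-unique reads. It was followed by mt-Co3 with a mean of 4.06% and mt-Co2 with 3.71%, subunits of the same enzyme, and by mt-Cytb, the cytochrome b of complex III, with 3.32%. Protein-coding mitochondrial genes made up 31.1 ± 4.62% and the mitochondrial ribosomal RNAs 0.885 ± 0.175%. With these genes kept, 126 genes of the mean profile held 50% of the reads.

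Outside the mitochondrial genes, reads were spread over many genes, and 629, 613, 587 and 704 genes held 50% of them. The 10 highest genes of a library took 7.79, 8.40, 7.37 and 6.79% of these reads and the 100 highest took 25.5, 26.2, 26.1 and 23.8%. Protein-coding genes took 98.2% of the reads. The highest long noncoding RNAs were Malat1, a nuclear RNA of most cells, with 1042, 1124, 873 and 1242 CPM, Neat1, the scaffold of paraspeckles, with 780.5, 940.0, 619.6 and 783 CPM, and Xist, the RNA that silences an X chromosome in female cells, with 335, 465, 357 and 546 CPM. All 3 were present in every library.

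The most read genes were those of lipid export, mucus, digestion and antibody transport, with Lars2 at their head. Lars2, the mitochondrial leucyl-tRNA synthetase, had 15076, 10981, 5229 and 15457 CPM and a mean of 11686 ± 4758 (SD, n = 4). Replicate 6 was low, and replicates 2 and 8 were the highest, as they were for the mitochondrial share. The other 16 mitochondrial aminoacyl-tRNA synthetases had 5.12 to 53.5 CPM, with a median of 20.1 CPM. Of the 11160 stretches of 31 bases in the annotated Lars2 transcripts, 0 were shared with a mitochondrial transcript. Sharing with other RNAs, such as cytosolic ribosomal RNA, was not searched. Whether all of these reads come from Lars2 mRNA was therefore not tested.

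Apoa1 ranked next with 11259.9 ± 2717 CPM, ahead of Fcgbp with 10679.7 ± 5245 CPM, and their ranges over the libraries overlapped. Pigr, the receptor that carries immunoglobulin A across the epithelium, had 5737, 5929.9, 7921 and 6609 CPM, and Anpep, aminopeptidase N of the brush border, had 5659.6, 5153, 7305 and 5617 CPM. Both were highest in replicate 6 and varied less than the apolipoproteins. Zg16, a lectin-like protein of goblet cell mucus, had 6461, 8386, 2825 and 3933 CPM and so the same order of libraries as Fcgbp. Selenop, the secreted selenium carrier, had 3312, 5859.9, 8503 and 2989 CPM, with replicate 6 at the top and replicates 2 and 8 low.

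Other genes among the 20 most read were Actb, Fth1, Sis, Lgals4, Fabp2, Apob, Krt8, Eef1a1, Vil1, Apoa4 and a feature without a name. Eef1a1, the translation elongation factor, had 4724, 3552, 3241 and 3445 CPM and did not span a factor of 2 between libraries. Apob, the structural protein of the chylomicron, had 1709, 4288, 6183 and 2985 CPM, with replicate 2 far below replicate 6. The feature ENSMUSG00000090378, which the annotation at hand does not name, had 6856, 4277, 4395 and 6800.4 CPM. Its estimated reads were 3.06 times its gene-unique reads. Reads shared with other genes therefore enter its TPM but not this CPM. Of the 25 highest genes by mean CPM, 16 were among the 25 highest in every library, and 33 genes were so in at least 1 library.

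**Figure D2:**
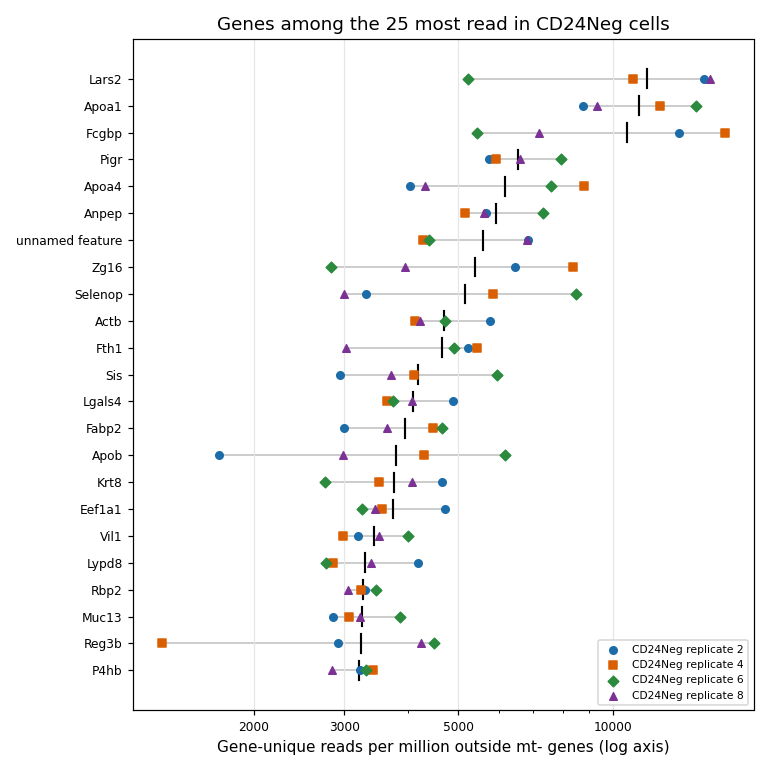
CPM (log axis) of genes among the 25 with the highest mean, with 1 symbol per CD24Neg library, a grey line for the range and a black bar for the mean. Lars2, Fcgbp, Zg16, Apob and Reg3b have wide ranges, and Rbp2 and P4hb have narrow ones.

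Ranked per length, short transcripts came forward. ENSMUSG00000090378 led with 41257 ± 8959 TPM (SD, n = 4), with those shared reads behind it. Apoa1 followed with 17894 ± 5187 TPM and Zg16 with 15248 ± 6972 TPM. Gm10222, annotated as a pseudogene, was listed at 12892, 1.88, 19326 and 24728 TPM with no gene-unique read, and all 264 of its stretches of 31 bases also occur in mt-Nd4l. Fabp1, which carries fatty acids in the cytosol, had 8939, 10930.1, 11846 and 8237 TPM. Tff3 had 12679.8, 14109, 5343 and 7802 TPM, Fth1, the ferritin heavy chain, had 9476, 10705, 10090.1 and 5805 TPM, and Rbp2, the retinol carrier of enterocytes, had 8145, 8705, 9759 and 8017 TPM. Rbp2 was the steadiest of these, and Fth1 was low in replicate 8. Reg3b, an antimicrobial lectin, had 6220, 3066, 10896 and 9586 TPM and was lowest in replicate 4. Of the 25 genes highest by CPM, 15 were also among the 25 highest by TPM, and 96 genes reached 1 TPM without a gene-unique read, with 3.36% of the summed TPM.

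Inside gene families, a single member usually led. Over 25 families with 358 matched members, 262 members reached 1 TPM in all 4 libraries and 37 had no read. Among all genes with a read, 11088 of 18856 reached 1 CPM in all 4 libraries. This share is in the other unit and leaves out genes without a read, so it compares only roughly with that of the members. The families were chosen with earlier results of these data known. The same member led in all 4 libraries in 20 families, and in 11 the leader held more than 50% of the summed level.

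Among the disaccharidases, which split table sugar, starch products, milk sugar and trehalose, Sis held 51.7% of the family's TPM. Sis had 1451, 1605, 2391 and 1508 TPM, Lct 409, 786, 963 and 504 TPM, Mgam, the maltase-glucoamylase, 474, 510.3, 771 and 464 TPM and Treh, the trehalase, 298, 486, 479 and 404 TPM. The range of Sis lay above the others, and those of Lct, Mgam and Treh overlapped. Of 11 sugar transporters, Slc5a1, the sodium-glucose cotransporter of the brush border, led with 763, 798, 1114 and 625 TPM, 3.83 times Slc2a2, the basolateral glucose and fructose exit carrier. Slc5a11, a sodium-inositol cotransporter, had 144 ± 25.4 TPM, and the fructose carrier Slc2a5 had 81.5 ± 17.6 TPM. The 3 genes after Slc5a1 were each below it in every library.

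Among the enzymes of fructose and glucose use, Khk, the fructokinase, had 839.6, 839, 846 and 873 TPM, an almost constant level. Aldoa, the aldolase of glycolysis, had 628, 549, 446 and 481 TPM, and its range overlapped that of Fbp2, a fructose bisphosphatase, at 503, 462, 561 and 403 TPM.

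Protein digestion was represented by many genes, and 10 of the 14 brush border peptidases reached 100 TPM in all 4 libraries. Anpep had 2254, 2238, 3285 and 2371 TPM and lay above the range of the next, Ggt1, a gamma-glutamyl transferase, at 1062, 1226, 1265 and 1242 TPM. Mep1b, a meprin subunit, had 819, 847, 1392 and 1049 TPM, and Ace, the angiotensin-converting enzyme, had 585, 847, 1091 and 612 TPM. Mep1b and Ace were highest in replicate 6, as were, by CPM, 9 of the 13 peptidases with a read. Of the genes with at least 50 CPM, 24.2% were highest there. Folh1, a folate hydrolase, had no read. Among 20 amino acid and peptide transporters no leader stood apart. Slc7a9, the light chain of the cystine carrier, had 337, 292, 315 and 341 TPM, Slc6a20a, a proline carrier, 286, 327, 398 and 259 TPM and Slc6a19, the neutral amino acid carrier, 191, 254, 318 and 236 TPM. Their ranges overlapped, and the first and second of them led in 2 libraries each.

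Alpi held 81.6% of the alkaline phosphatase level with 1141, 1427, 1239 and 931 TPM. Akp3, a second intestinal isozyme, had 305, 443, 291 and 85.6 TPM and was low in replicate 8. Alppl2, an embryonic isozyme, had 7.65, 4.66, 3.78 and 6.21 TPM, and Alpl, the isozyme of bone and liver, had no read in any library.

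Fat handling genes were led by apolipoproteins. Apoa1 held 58.4% of the apolipoprotein TPM and was 2.46 times Apoa4. Apoc2, the activator of lipoprotein lipase, had 2176, 3176, 3360.5 and 2291 TPM, and Apoc3, its inhibitor, had 1294, 2924, 2569 and 1264 TPM. Apoa4 and Apoc3 were both high in replicates 4 and 6 and low in replicates 2 and 8. Apoe, the remnant ligand made by liver and macrophages, had 8.24 ± 2.76 TPM, and Apod had no read. Among 9 fatty acid binding proteins, Fabp1 with 9988 ± 1684 TPM was followed by Fabp2, the intestinal form, with 4771, 7727, 8393 and 6117 TPM. Fabp1 was above Fabp2 in every library, but their ranges overlapped. Fabp6 had 4621, 3312, 1280.4 and 6864 TPM and was the only one of the 3 that was low in replicate 6. Fabp5 had 2.52 ± 0.561 TPM, while Fabp3, Fabp4, Fabp7 and Fabp9, forms of muscle, fat, brain and testis, had no read.

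Fat uptake and chylomicron assembly were led by Dgat1, which makes triglyceride, with 1740.4, 1658, 1728 and 2039.5 TPM. Mttp, the transfer protein that loads lipid on Apob, had 856, 1103, 1324 and 956 TPM, and Acsl5, which activates fatty acids, had 737, 1038, 1150.2 and 999.7 TPM. Of the 21 genes, 20 reached 1 TPM in all 4 libraries, and 12 were highest in replicate 6 by CPM. Replicate 6 was highest for 24.2% of the genes with at least 50 CPM. Rbp2 held 74.2% of the level of the retinoid genes. Aldh1a1, which oxidises retinal to retinoic acid, had 279, 612, 392 and 268 TPM and was high in replicate 4, while Aldh1a2, which catalyses the same step, and Stra6, a receptor for retinol uptake, had no read.

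Among genes of metal handling, Fth1 held 73.1% of the TPM. Ftl1, the ferritin light chain, had 1520.2, 2054, 1557 and 1334 TPM, with 2.18 estimated reads for each gene-unique read. S100g, the calcium carrier calbindin-D9k of the proximal intestine, had 571, 629, 329 and 120.2 TPM and so was lowest in replicate 8.

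The cytoskeleton of the brush border was expressed across the board, and 17 of 20 genes reached 100 TPM in all 4 libraries. Actb, beta-actin, had 4395, 3432, 4056 and 3417 TPM. Myo15b, an unconventional myosin, had 1885, 1796, 1917 and 2439 TPM and Vil1, the actin bundler villin, had 1427, 1455, 2022 and 1669.6 TPM. Actg1, gamma-actin, had 1914 ± 146 TPM, of which most rests on shared reads, since its estimated reads were 5.21 times the gene-unique ones. Of the keratins, Krt8 had 3653, 3001, 2449 and 3389.6 TPM, Krt19 2969, 1875, 1359 and 2416 TPM and Krt20, a keratin of mature villus cells, 871, 1135, 1243 and 1166 TPM. Krt8 and Krt19 were lowest in replicate 6 and Krt20 highest there. Krt18, the usual partner of Krt8 in filaments, had 239 ± 69.8 TPM.

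Claudins, which seal or open the path between cells, were led by 3 members. Cldn7 had 1256, 1258, 1183 and 1214 TPM, Cldn3 783, 715, 649.7 and 727 TPM and Cldn15, which forms sodium channels between cells, 546, 612, 659 and 488 TPM. The range of Cldn7 lay above those of Cldn3 and Cldn15, which overlapped. The next member, Cldn4, had 45.6, 115, 50.3 and 36.0 TPM with replicate 4 high. Cldn5, Cldn6, Cldn10, Cldn11, Cldn16 and Cldn18 had no read.

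Galectins also had a clear leader, while the leading mucin overlapped the next in range. Lgals4, a galectin of the gut epithelium, had 6094, 4889, 5221 and 5476 TPM and 60.5% of the family's level, and Lgals2 had 2893, 2713, 1584 and 2279.9 TPM. Lgals9 at 579 ± 20.1 TPM and Lgals3 at 522 ± 60.9 TPM overlapped. Muc13 and Muc3 are mucins anchored in the brush border, and had 1332, 1557, 2032 and 1592 TPM and 947, 1131, 1343 and 872 TPM. Secreted Muc2 had 665, 927, 292 and 387 TPM. In every library the order was Muc13, Muc3 and Muc2, but Muc2 ran opposite to the other 2 in replicate 6, where it was lowest and they were highest. Muc15 had no read.

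Reg lectins, secreted proteins that act on bacteria and on regeneration, differed between libraries. Reg3b led in 3 libraries, but Reg1 led in replicate 4 with 3203, 3939, 3167 and 1819.7 TPM. Reg3g, which kills Gram-positive bacteria, had 2783, 1407, 2447 and 4298 TPM. Reg3b and Reg3g were both lowest in replicate 4, whereas Reg1 was highest there and lowest in replicate 8. Carbonic anhydrases were low by comparison: Car4, anchored in the membrane, had 207, 124, 118 and 161 TPM, Car9 76.5 ± 11.3 TPM and the cytosolic Car13 40.2 ± 6.73 TPM, and Car10 had no read. Aquaporins had no clear leader, since Aqp1 had 55.4, 121, 125 and 62.3 TPM and Aqp11 84.3, 94.5, 100.3 and 75.7 TPM, and each led in 2 libraries. Aqp8 had 12.8, 39.8, 19.9 and 13.6 TPM, and Aqp2, Aqp5 and Aqp6 had no read.

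**Figure D3:**
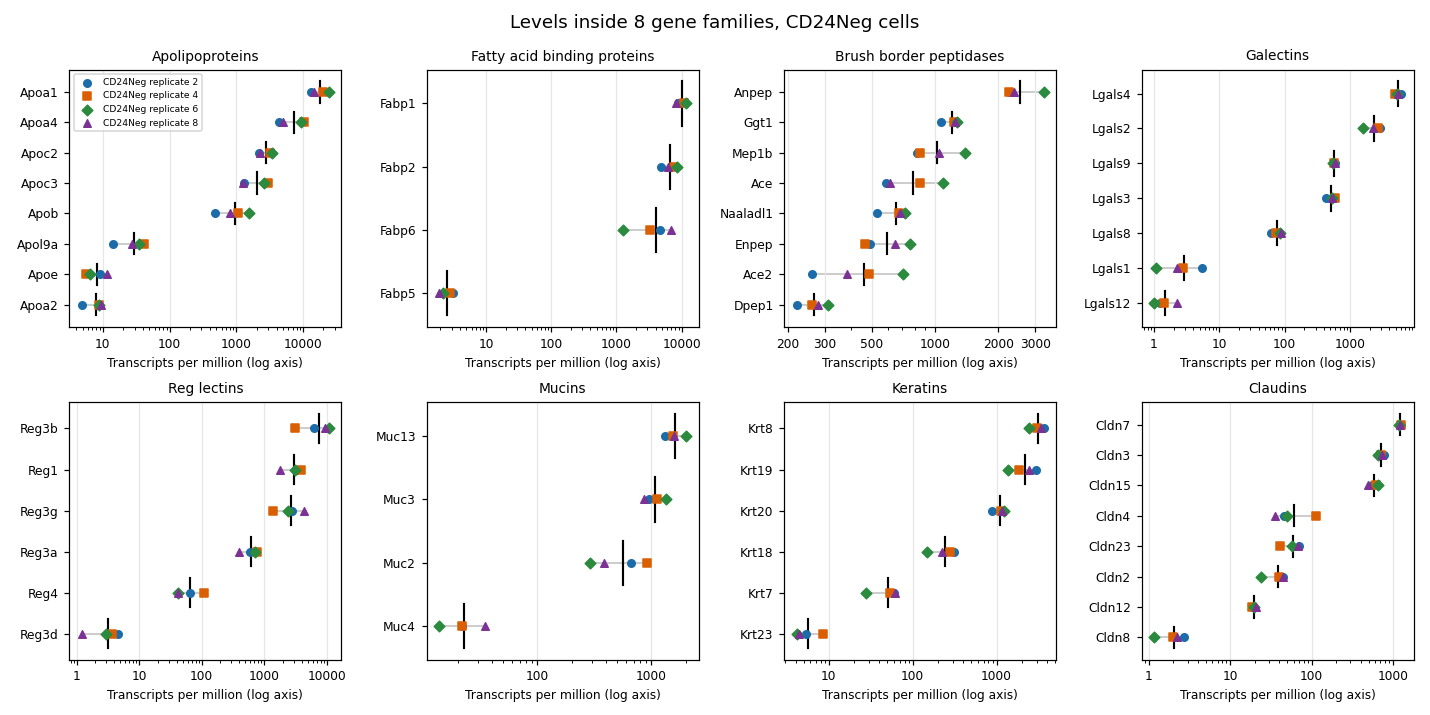
TPM (log axis, different range in each panel) of up to 8 members with a mean of at least 1 TPM in 8 gene families, with 1 symbol per CD24Neg library, a grey line for the range and a black bar for the mean. Apoa1, Anpep, Lgals4 and Cldn7 lie above the next member without overlap, while the Reg lectins cross between libraries.

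Drug-metabolising families were ranked in the same way. Of 44 cytochromes P450, 35 had a read, 28 reached 1 TPM in all 4 libraries and 10 reached 100 TPM. The median of the list was 11.7 TPM. By CPM, 11088 of the 18856 genes with a read reached 1 in all 4 libraries. Cyp4f14, a fatty acid and leukotriene hydroxylase, led with 657, 889, 1006 and 749 TPM. Cyp2d26 had 382, 619, 612 and 418 TPM, and Cyp3a25, of the subfamily that oxidises steroids and many drugs, had 240.4, 465, 462 and 289.9 TPM. Every one of these 3 was higher in replicates 4 and 6 than in replicates 2 and 8. The 9 members without a read included Cyp7a1, the first enzyme of bile acid synthesis in liver, and the vitamin D enzymes Cyp24a1 and Cyp27b1. The others were Cyp1b1, Cyp2b9, Cyp3a16, Cyp3a41a, Cyp4a14 and Cyp7b1.

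Among 23 glutathione transferases, Gstp1 had 994, 938, 808 and 919.8 TPM, Gsta1 852, 1287, 686 and 552 TPM and Gsto1 704, 781, 749 and 595 TPM. Their ranges overlapped, and the first 2 rest in large part on shared reads, with 1.89 and 3.50 estimated reads per gene-unique read. By CPM, 16 of the 23 were highest in replicate 4 and 14 were lowest in replicate 8. The shares over the genes with at least 50 CPM were 11.5% and 18.8%. Glucuronosyltransferases were led by Ugt1a1, which conjugates bilirubin, with 376, 452, 528 and 325 TPM, and Ugt2b34, with 271, 458, 505 and 347 TPM, each first in 2 libraries. The exons shared across the Ugt1a genes put Ugt1a1 at 5.05 and Ugt1a7c at 1.83 estimated reads per gene-unique read, so the order is uncertain, and Ugt1a10 had no read.

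Carboxylesterases, which cleave ester drugs and lipids, were led by Ces2e with 1026, 1285, 1367 and 922 TPM and 47.1% of the family. Ces2c had 428, 717, 508 and 374 TPM, with 2.50 estimated reads per gene-unique read, and Ces2a had 388, 664, 469 and 281 TPM, while Ces1h had no read. Sult1b1, a sulfotransferase of phenols and thyroid hormone, had 469.9, 517, 744 and 499.9 TPM, ahead of Sult1d1 with 220.0, 313, 489.6 and 233 TPM and the cholesterol sulfotransferase Sult2b1 with 218, 223, 262 and 228 TPM. Sult1b1 was above Sult1d1 in every library, but their ranges overlapped. Both were high in replicate 6. Sult1c1, Sult1e1, Sult2a1 and Sult4a1 had no read. Among glutathione peroxidases, Gpx4, which reduces lipid peroxides, had 1278, 1162, 1103 and 1325 TPM, Gpx1 1021, 745, 550.3 and 751 TPM and the gut form Gpx2 339 ± 116 TPM. These 3 did not overlap, and Gpx6 had no read.

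Nearly all of the listed transcription factors were expressed. Of 102 factors, 97 reached 1 TPM in all 4 libraries and 21 reached 100 TPM. Their median was 40.3 TPM, against 4.18 TPM over all genes with a read. By CPM, 99 factors reached 1 in all 4 libraries, beside 11088 of the 18856 genes with a read. This list and those of the other regulators were chosen with earlier results of these data known. Such counts therefore describe the lists. Fos, an immediate early factor that pairs with Jun proteins, led with 613, 381, 626 and 605 TPM. Creb3l3, a factor of the endoplasmic reticulum that controls lipid genes, had 364, 504, 484 and 411 TPM, and Elf3, an Ets factor of epithelia, had 475, 346, 415 and 473 TPM. Fos was low in replicate 4, where Creb3l3 was highest, and lay above both in the other libraries.

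Jun with 367, 295, 374 and 520.4 TPM, Junb with 431, 286, 360.3 and 454 TPM and Jund with 328, 273, 259 and 323 TPM are the partners of Fos. Jun and Junb were lowest in replicate 4 and highest in replicate 8. Mlxipl, the carbohydrate-sensing factor ChREBP, had 339.8, 272, 306 and 383 TPM, and Nfe2l2, the oxidative stress factor Nrf2, had 226, 284, 344 and 330.1 TPM. Atf4, of the integrated stress response, had 288 ± 44.3 TPM, and Xbp1, of the unfolded protein response, had 203 ± 20.5 TPM. Id1 and Id3, inhibitors of bHLH factors and targets of bone morphogenetic proteins, had 239 ± 33.8 and 161 ± 22.6 TPM, and Irf1, an interferon response factor, had 219 ± 32.1 TPM. The 5 factors under 1 TPM in some library were Dbp, Hlf, Per3, Ascl2 and Zbtb16.

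Hnf4a and Hnf4g, paired nuclear receptors that drive enterocyte genes, had close means and unlike spread. Hnf4a had 236, 244, 251 and 252 TPM, with a CV of 2.92%. Hnf4g had 157, 278, 343 and 239.9 TPM, with a CV of 30.5%. Hnf4g was below Hnf4a in replicates 2 and 8 and above it in replicates 4 and 6. Apoa4, Lct and Apoc3 were also higher in replicates 4 and 6. Alpi was not, with 1839.7 CPM in replicate 6 and 1915 CPM in replicate 2. Any relation between Hnf4g and these genes was not tested.

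Of 48 nuclear receptors, 30 reached 1 TPM in all 4 libraries. By CPM, 33 reached 1 in all 4, beside 11088 of the 18856 genes with a read. Esrra, a receptor of mitochondrial gene programmes, led with 317, 282, 323 and 329.9 TPM, and only in replicate 6 was another receptor, Hnf4g, above it. Vdr, the vitamin D receptor, had 183, 198, 221 and 155 TPM, Nr1h2, the oxysterol receptor LXR beta, 166, 157, 158 and 179 TPM and Ppard, a fatty acid receptor, 157, 127, 137 and 130.0 TPM. Nr1i3, the drug sensor CAR, had 148, 137, 129.6 and 131 TPM, and Thra, a thyroid hormone receptor, had 119, 103, 124 and 92.8 TPM. Vdr overlapped Nr1h2 and Ppard overlapped Nr1i3, while Ppard lay just under the range of Nr1h2 and Thra under that of Nr1i3. Rxrg, Pgr, Nr2e1, Nr0b1, Esrrb and Esr2 had no read.

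Ligands were headed by the guanylin peptides, which act on the brush border receptor Gucy2c to drive fluid and salt secretion. Guca2b, uroguanylin, had 1822, 2938, 3252 and 1809 TPM and 46.5% of the TPM of the 49 listed ligands, and Guca2a, guanylin, had 549, 681, 555 and 454 TPM. Between them lay Ccl25, the chemokine that draws T cells to the small intestine, with 1160.4, 967, 1209 and 1104 TPM. Guca2b was high in replicates 4 and 6, and Ccl25 was nearly even. Il18, an inflammasome cytokine, had 211 ± 40.9 TPM, Efna1, a surface ephrin, 150.2 ± 18.0 TPM and Vegfa, the vascular growth factor, 108 ± 22.6 TPM. Ihh, the hedgehog ligand that signals to the mesenchyme, had 76.3 ± 6.56 TPM and Cx3cl1, a membrane chemokine, had 69.8 ± 7.69 TPM. Of the 49, 32 reached 1 TPM in all 4 libraries, where by CPM 11088 of the 18856 genes with a read reached 1. Nrg1, a ligand of ErbB receptors, had no read.

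Receptors were lower than the leading ligands, and 30 of 39 reached 1 TPM in all 4 libraries. The share of all genes with a read that reached 1 CPM there was 11088 of 18856. Gucy2c had 163, 181, 208 and 153 TPM and Erbb3, which pairs with Erbb2, had 142, 159, 171 and 142 TPM. The ranges of these 2 overlapped. Erbb2 itself had 103 ± 7.00 TPM. The interferon gamma receptor chains Ifngr2 and Ifngr1 had 138 ± 29.0 and 125 ± 8.74 TPM, Tnfrsf1a, a receptor of tumour necrosis factor, 100.2 ± 4.50 TPM, Il10rb, a shared chain of interleukin receptors, 100.2 ± 12.5 TPM and Epha2, an ephrin receptor, 58.0 ± 9.21 TPM. Erbb4, a receptor of neuregulins, had no read.

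**Figure D4:**
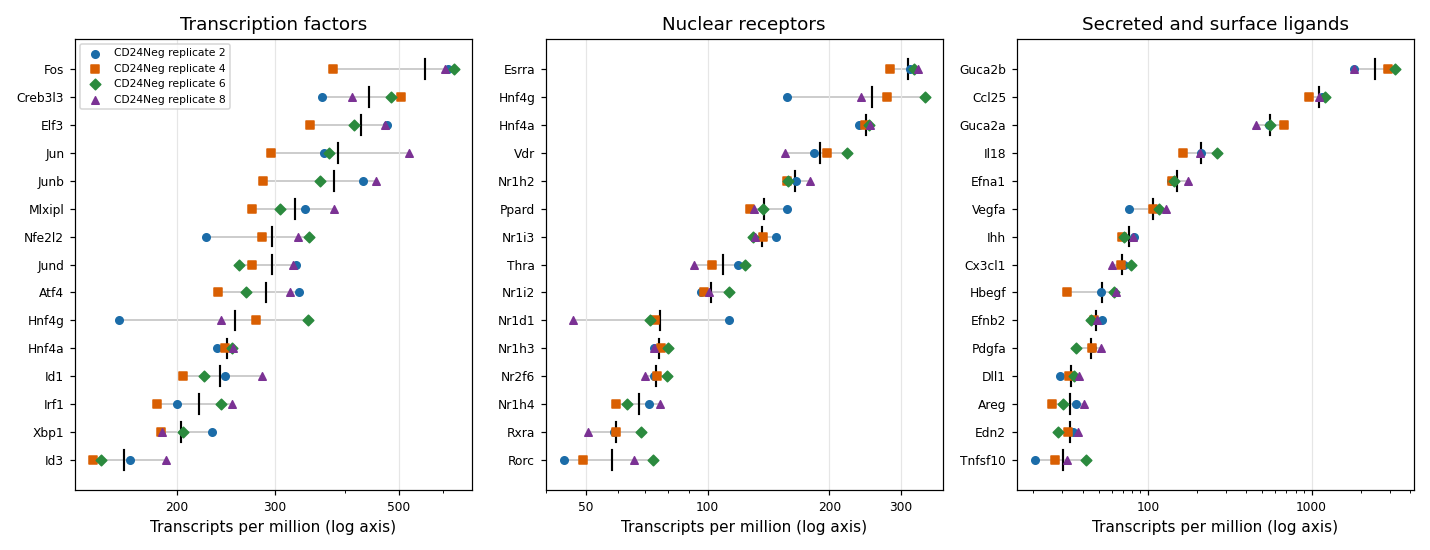
TPM (log axis, different range in each panel) of the 15 highest transcription factors, nuclear receptors and ligands, with 1 symbol per CD24Neg library, a grey line for the range and a black bar for the mean. Hnf4a and Ccl25 are tight, while Fos, Hnf4g and Guca2b spread between libraries.

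Spread over the 4 libraries was compared for the 4027 genes with a mean of at least 50 CPM. Their median CV was 11.6%, where counting error alone would give a median of 3.20%. The CV was over 50% in 35 genes and under 5% in 352 genes (8.74%). Replicate 2 was the highest library for 33.3% of these genes, replicate 8 for 30.9%, replicate 6 for 24.2% and replicate 4 for 11.5%. The lowest library was replicate 6 for 31.1%, replicate 2 for 28.9%, replicate 4 for 21.2% and replicate 8 for 18.8%. Yet among the 81 genes with a CV over 40% replicate 4 was the highest most often, for 38.3%.

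The 10 smallest CVs among named genes were those of Becn1, Prpf8, Zfp622, Kpna6, Dstn, Mapk1ip1l, Tom1l2, Dnajc5, Laptm4a and Nbas. Becn1, an autophagy protein, had 149, 150.0, 151 and 150.1 CPM and a CV of 0.602%. Prpf8, the core protein of the spliceosome, had 244, 240.3, 237 and 239.7 CPM, and Dstn, an actin-depolymerising factor, had 1390.4, 1380.2, 1365 and 1348 CPM. These CVs run up to 1.50% in Nbas, a protein of retrograde vesicle traffic. For 9 of the 10 the CV was under that of counting error alone, which is 2.67% for Becn1, so their order among 4027 genes says nothing about steadiness. By TPM the CVs of the 10 were 3.92% in Prpf8 to 10.8% in Kpna6, a nuclear import factor, and 9.06% in Becn1.

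Genes with the largest CV fell into sets that peaked in different libraries. Some genes of drug metabolism were highest in replicate 4. Cyp3a11, a major drug oxidase, had 168, 918, 463 and 206 CPM, and Cyp2b10, a target of the receptor CAR, had 211, 707, 379 and 259 CPM. Cyp2c55 had 45.8, 203, 70.9 and 56.7 CPM, and Gstm1, a glutathione transferase, had 122, 349, 93.1 and 81.7 CPM. In all 4 genes replicate 4 stood above the rest, and replicate 6 was second for the 3 P450 genes. They were picked by their CV, and not all families of drug metabolism followed them. Of the 35 cytochromes P450 with a read, 14 were highest in replicate 4 and 13 in replicate 6. Replicate 4 was highest for 16 of 23 glutathione transferases, 9 of 14 glucuronosyltransferases and 10 of 15 carboxylesterases with a read. Among the genes with at least 50 CPM, replicate 4 was highest for 11.5% and replicate 6 for 24.2%. The sulfotransferases summed to 933, 992, 1368 and 921 CPM, highest in replicate 6.

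Genes of the villus tip that break down and take up purines were also highest in replicate 4. Ada, adenosine deaminase, had 96.7, 462, 223 and 167 CPM, and Slc28a2, a purine nucleoside carrier, had 29.2, 162, 115 and 76.1 CPM. Enpp3, a nucleotide pyrophosphatase, had 64.9, 216, 115 and 155 CPM and Nt5e, which makes adenosine, had 4.62, 15.3, 9.13 and 13.1 CPM. Replicate 6 was second for Ada and Slc28a2, and replicate 8 for Enpp3 and Nt5e. All 8 listed villus tip genes were lowest in replicate 2, and 6 of the 8 were highest in replicate 4. Among the genes with at least 50 CPM, replicate 2 was lowest for 28.9%. Replicate 4 was highest for 11.5% of them and lowest for 21.2%. Of the 7 lower villus genes 5 were lowest in replicate 4, among them Reg3b with 2912, 1322, 4489 and 4232 CPM and Reg3g with 1359, 632, 1046 and 1965 CPM. The lower villus list summed to 11519, 7684, 11025 and 11675 CPM. Markers of Paneth cells, whose Lyz1, a lysozyme, had 28.7, 122, 25.3 and 35.4 CPM, and goblet markers were also highest in replicate 4, and their part in these differences was not tested.

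Replicate 6 was the highest library for Apob and for 12 of the 21 genes of fat uptake and chylomicron assembly, beside 24.2% of the genes with at least 50 CPM. Cd36, a fatty acid receptor, had 51.1, 94.8, 175 and 53.0 CPM, and Pdk4, the kinase that holds back glucose oxidation, had 49.6, 48.2, 107 and 23.6 CPM. Sgk1, a kinase induced by glucocorticoid and mineralocorticoid, had 71.4, 144, 260.0 and 76.5 CPM. Cyp1a1, the target of the aryl hydrocarbon receptor, had 3.13, 21.9, 153 and 4.56 CPM, the widest ratio of highest to lowest library among the listed response genes at 48.8. Scd2, a fatty acid desaturase, ran the other way with 97.8, 97.4, 23.5 and 180.5 CPM, lowest in replicate 6 and highest in replicate 8.

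Replicate 8 was high for MHC class II genes and a pair of heat shock genes. Cd74, the invariant chain of MHC class II, had 605, 333, 602 and 1419.6 CPM. The class II chains H2-Aa and H2-Eb1 had 81.9, 63.7, 87.6 and 263 CPM and 90.6, 69.7, 97.7 and 239.9 CPM. Replicate 8 was over 2 times each other library in these 3 genes. Of the class I genes, B2m, the light chain, had 1294, 1464, 1911 and 1471 CPM, highest in replicate 6. H2-K1, a heavy chain, had 1242, 1485, 1473 and 1635 CPM. It was also highest in replicate 8, but at only 1.32 times its lowest library. Myeloid and T cell markers were also above their means in that library, with sums of 28.2 and 471 CPM, and their part was not tested. The heat shock protein genes Hspa1a and Hspa1b had 26.4, 34.7, 15.9 and 118 CPM and 56.3, 76.3, 37.6 and 193 CPM, with 2.18 and 2.06 estimated reads per gene-unique read, since they are near-identical copies.

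Immediate early and heat shock genes were, as a list, high in replicates 8 and 2. The 15 genes summed to 4918, 3046, 3882 and 4971 CPM, and 11 of the 15 were lowest in replicate 4. Highest values fell in replicate 8 for 9 of them and in replicate 2 for the other 6. Among the genes with at least 50 CPM, replicate 8 was highest for 30.9% and replicate 2 for 33.3%. Replicate 4 was lowest for 21.2% of those genes. Hspa8, a heat shock gene, held 25.8% of the list's TPM, and by TPM Fos was highest in replicate 6. The mitochondrial share and the lower villus sum had the same order of libraries, 8, 2, 6 and 4, and the T cell sum of 588, 34.2, 91.2 and 471 CPM was also high in replicates 2 and 8 and lowest in replicate 4. Their part in these values was not tested. The 15 circadian clock genes summed to an even 551, 522, 570.1 and 521 CPM, but single members did not. Nr1d1, the clock repressor Rev-erb alpha, had 194, 119, 108 and 73.5 CPM and Dbp, an output factor in the same phase, 3.81, 1.94, 1.03 and 0.863 CPM, while Arntl, which peaks opposite to them, had 67.7, 72.3, 93.8 and 97.9 CPM. Nr1d1 and Dbp were highest in replicate 2, where Arntl was lowest. The hour of collection is not given in the labels.

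Genes that differ along the length of the small intestine also varied between libraries. Fabp6, a gene of the ileum, had 1182, 783, 287 and 1655 CPM, and Slc10a2, the ileal bile acid carrier, had 4.08, 5.45, 7.00 and 15.2 CPM. Both were highest in replicate 8. S100g had 147, 149, 73.9 and 29.1 CPM and Trpv6, the apical calcium channel of the duodenum, had 9.38, 4.00, 3.46 and 0.370 CPM. Cybrd1, the duodenal ferric reductase, had 2.99, 11.3, 3.17 and 1.36 CPM. These 3 proximal genes were lowest in replicate 8, as were 7 of the 8 listed proximal genes, and 4 of the 7 distal genes were highest there. Among the genes with at least 50 CPM, replicate 8 was lowest for 18.8% and highest for 30.9%. The distal count, 4 of 7, is too small to be set apart from its share. The proximal count, 7 of 8, lay above its share, on a list chosen with earlier results of these data known. Cyp4a10, a fatty acid hydroxylase, had 8.16, 17.8, 9.28 and 1.73 CPM and was lowest in replicate 8 as well. Which segments were pooled in each library is not given in the labels, and its part in these differences was not tested.

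**Figure D5:**
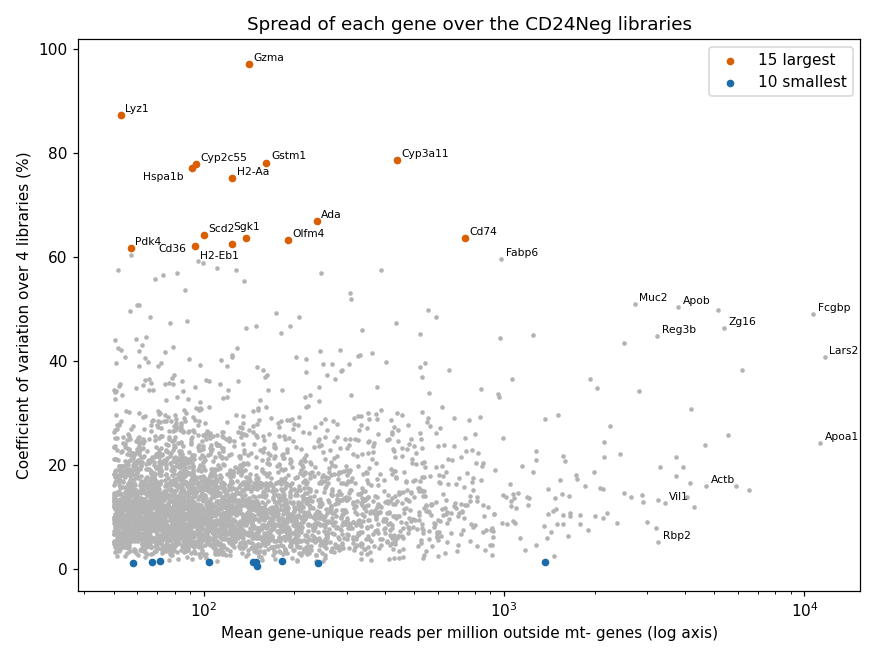
CV over the 4 CD24Neg libraries (percent) against mean CPM (log axis) for each of 4027 genes in grey, with the 15 largest and 10 smallest CVs among named genes in colour. Gzma is highest at 97.1%, and among the most read genes Fcgbp, Zg16, Muc2 and Apob lie near 50% while Rbp2 lies near 5%.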

How the data were processed

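Total RNA from flow-sorted cells was made into TruSeq RNA libraries, per the labels' protocols. Bowtie 0.12.8 and the build NCBIM37 are named in the submitters' processing notes. The column names of the tables are those of MMSEQ, while its version, annotation release and strand setting are not given in the sources used. Antisense and overlapping genes therefore cannot be told apart by strand.

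The authors deposited, for 37620 genes per library, whole-number counts of fragments unique to the gene, without normalisation, and an expression estimate on a log scale, in which shared reads are apportioned. Per the file headers the mapped fragments are known, and the deposited estimate was read as a natural log, of fragments per 1000000 mapped and per kilobase of the gene's effective length. The slope of the natural log of the unique counts on it was 0.977 to 0.981. Names came from GENCODE M21 and RefSeq GRCm38.p6, a later build, so only promoter positions are printed. Features without a name (87.4% had one) held 0.697% of the gene-unique reads and stayed in the totals.

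CPM divides by gene-unique reads outside mt- genes, and TPM scales the exponential of the estimate to 1000000 over the same genes. The groups were taken from the sample titles. No test across groups was made. CV was computed for genes with a mean of at least 50 CPM. On simulated counts for 4 libraries the CV script over 4027 genes gave a median of 42.4% for 200 genes drawn with an SD of 50% and 9.24% for the others, drawn with 10%. Exact floors take 3 counts, which cover counting error only. Duplicate libraries were looked for with a chi-square over genes, which was at least 18.7 per degree of freedom for each pair.

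Genes were named by rule: the markers and sort genes, the 20 highest by CPM and 10 by TPM, the first 3 of each family and members without a read, the first 15 transcription factors, the first 8 nuclear receptors, ligands and receptors, the 15 largest and 10 smallest CVs among named genes, members of pattern lists with a highest library over 3 times the lowest, and the highest gene of each marker list. Other genes were named after their values were seen, and some genes that the rule covers are not reported here. The members and the 53 lists (754 of 761 places matched) were chosen with earlier results of these data known. Alternatives were mt- genes kept, estimated reads, other filters, TMM of edgeR 4.0.16, DESeq2 1.42.0 size factors and leaving out each library. Python 3.11.15, NumPy 2.4.6, pandas 2.3.3, SciPy 1.17.1, matplotlib 3.10.9 and R 4.3.3 were used.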

Additional observations from a re-analysis of the deposited data

Results flagged for a closer look

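Dixon's criterion for a single library far from the other 3 was applied to 226 genes and list sums, and 12 of them (5.31%) passed it. For items not picked by their spread, chance passes about 5%. Replicate 6 was the library apart for Mgam with 3215 CPM (others 2052 to 2226), Sult1b1 with 595 CPM (others 418 to 425), the summed sulfotransferases with 1368 CPM (others 921 to 992) and Cyp1a1 with 153 CPM (others 3.13 to 21.9). Replicate 4 stood apart for Lyz1 with 122 CPM (others 25.3 to 35.4), Gstm1 with 349 CPM (others 81.7 to 122) and Cyp2c55 with 203 CPM (others 45.8 to 70.9). It was also the library apart for the summed lower villus genes, with 7684 CPM (others 11025 to 11675), and for Laptm4a, a lysosomal membrane protein, with 187 CPM (others 181 to 182), where the gap is small in size. Replicate 8 stood apart for H2-Aa with 263 CPM (others 63.7 to 87.6) and H2-Eb1 with 239.9 CPM (others 69.7 to 97.7). Replicate 2 stood apart for Xbp1 alone, with 272 CPM (others 206 to 214). The items included genes named for a large or small CV, or for a highest library over 3 times the lowest. The share that passed can therefore not be weighed against that of chance, and no cause was tested.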

How the results depend on the processing

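Keeping the mt- genes lowered the number of genes that hold 50% of the reads from 641 to 126, left 14 of the 25 most read genes in place and lowered the summed enterocyte markers from 26287 to 18104.9 CPM. Ranking per length left 15 of the 25. Counting every gene with a read raised the median CV from 11.6% to 26.3%, and leaving out each library in turn gave 9.63% to 12.5%. The counts of expressed genes and factors and of family leaders kept (20 to 25 of 25) moved by less than 1.5 times under every alternative run, and the mitochondrial share was 30.4% to 33.5%. By CPM without length, Fabp2 led in place of Fabp1, Mttp in place of Dgat1, Slc43a2 in place of Slc7a9, Gsto1 in place of Gstp1 and Ugt2b34 in place of Ugt1a1. Without replicate 4 or 6 Aqp11 led the aquaporins in place of Aqp1, without 2 or 8 Slc6a20a replaced Slc7a9, without 2 Ugt2b34 replaced Ugt1a1, and without 8 Gsta1 replaced Gstp1. Leaving out 1 of 4 libraries cannot move a mean by 1 SD, so for levels it says nothing about stability. Of 170 named genes, TMM moved 0 by more than 1 SD, estimated reads moved 34, and keeping mt- genes moved 112. No paired analysis was possible because the 4 libraries form 1 group, whose numbers no other group shares. Genes under the floor of 0.221 to 0.408 CPM cannot be called absent.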
